A study of Rattus norvegicus with 6 samples.

Results

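The peptide hormones of the islet cells that are not β-cells were followed here in a β-cell line, together with a pair of transcription factors of the lineages that make them. They were glucagon (Gcg, made by α-cells), somatostatin (Sst, δ-cells), pancreatic polypeptide (Ppy, PP cells), peptide YY (Pyy) and ghrelin (Ghrl, ε-cells), with Pou3f4, a POU factor of α-cells, and Hhex, a homeobox factor of δ-cells. All probe sets listing 1 of these 7 symbols were taken, which gave 1 probe set for each gene, 7 of 31042 probe sets and 7 genes of 14217 with a probe set of their own. The choice rests on what the genes encode and no measured value entered its rule, but it was made with earlier results of these data known.

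The cells were INS-1 cells of the clone 832/13, from a rat insulinoma, a single clonal line selected for its insulin secretion, kept in medium with 11 mM glucose and used between passages 7 and 25. They were electroporated with siRNA against COUP-TFII, a nuclear receptor encoded by Nr2f2, or with scrambled siRNA, and cultured for 48 h, and the comparison asks what changes in a β-cell when COUP-TFII is depleted. RNA was measured on 3 Affymetrix rat arrays from COUP-TFII depleted cells and 3 from control cells, which share line, medium, electroporation and time and differ in the siRNA. The labels call the arrays of each group biological replicates and number them 1, 2 and 3, without naming the cultures or days behind a number.

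In an islet each hormone has its own cell type. α-cells release glucagon when glucose is low and it raises hepatic glucose output through its receptor Gcgr, whereas somatostatin restrains both insulin and glucagon release. The gene for glucagon also encodes GLP-1, which α-cells and gut L-cells release and which acts on β-cells through Glp1r. INS-1 cells derive from an insulinoma and their defining product is insulin, yet RNA of other islet hormones can be present in such lines.

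A signal is a MAS5 intensity, 1 value per probe set and array, and fold changes are differences of log2 signals, those of COUP-TFII depleted cells minus those of control cells, with signals under 1 set to 1. As a scale for background, the 27 probe sets of Bacillus controls read at most 20.7. Whether these controls were added to the RNA is not stated in the sources used here. A gene whose mean lay at or below 20.7 in both groups is called dim. Signals of different probe sets are on different scales, so this cut is rough, and beyond it they were not set against each other. Nr2f2 had 3 probe sets, of which 1 was dim. The brightest read 47.0, 27.7 and 23.8 in COUP-TFII depleted cells and 182, 235 and 179 in control cells, so the groups did not overlap, and its adjusted p from limma was 0.404, or 0.0185 with the replicate number as a block. The other read 19.7, 22.2 and 21.3 against 79.8, 65.7 and 61.8. Both probe sets that were not dim were lower on every array of COUP-TFII depleted cells than on any control array. In the depleted cells the second lay around the highest Bacillus control signal.
The insulin genes Ins1 and Ins2 were bright on all 6 arrays, from 9490 to 15840 and from 3230 to 8198, and 0 of 11 measured β-cell markers were dim. Of 43 measured markers of acinar, duct, stromal, endothelial and immune cells, 13 were not dim and 30 were dim. Those not dim included Krt7, Car2, Thy1, Esam and Cd68. Cd68 lay near the cut, with a mean of 26.0 in COUP-TFII depleted and 27.7 in control cells. Of all probe sets 37.5% were dim.

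The promoters of the glucagon and somatostatin genes are shown because Gcg was the one gene of the 7 far above background, while Sst, whose promoter is known for its cAMP response element, was dim. Both are RefSeq sequences of the build GRCr8, 250 bases before to 50 after the gene's start, read 5′ to 3′ on the gene's strand. The Gcg window lies at chr3:67531484-67531783 on the minus strand and the Sst window at chr11:90461296-90461595 on the plus strand. Capitals mark matches on either strand to the motifs TATAAA (the core of a TATA box), TAAT (the core that homeodomain factors bind, sharing letters where matches abut) and TGACGTCA (cAMP response element).
Gcg promoter: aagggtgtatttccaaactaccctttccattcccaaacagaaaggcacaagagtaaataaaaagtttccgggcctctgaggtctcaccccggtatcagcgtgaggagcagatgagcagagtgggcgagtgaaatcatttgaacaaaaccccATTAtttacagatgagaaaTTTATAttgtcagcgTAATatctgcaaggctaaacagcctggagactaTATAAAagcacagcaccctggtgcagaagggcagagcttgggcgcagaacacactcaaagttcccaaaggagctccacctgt
Sst promoter: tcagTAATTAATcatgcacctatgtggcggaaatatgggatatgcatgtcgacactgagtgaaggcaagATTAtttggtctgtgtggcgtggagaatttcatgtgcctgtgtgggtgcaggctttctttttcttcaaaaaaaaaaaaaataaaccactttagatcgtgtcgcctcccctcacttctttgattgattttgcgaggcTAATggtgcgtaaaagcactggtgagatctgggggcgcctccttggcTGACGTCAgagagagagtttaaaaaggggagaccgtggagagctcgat
The Gcg window held TATAAA 32 bases before the start on the gene's strand and once on the other strand, and 2 matches to TAAT. The Sst window held TGACGTCA, 3 bases past the start that this table annotates, which may lie upstream of the main start, and 5 matches to TAAT. Of the 7 promoters, 1 held TGACGTCA, against 1.83% of the 33469 rat promoters of this length, and 2 held TATAAA, against 14.2%. TAAT was in 3 of the 7, against 60.6%. The half-site AGGTCA, to which COUP-TFs and other nuclear receptors bind, was in 0 of the 7, against 16.2% of all promoters. A match is a description of letters, and no match says nothing of sites outside these windows.

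The glucagon gene gave bright signals in the cell line, and these were uneven between the arrays. The Gcg signal was 8056, 4789 and 817 in COUP-TFII depleted cells, replicates 1, 2 and 3, and 6313, 3397 and 394 in control cells. Every array read far above the highest Bacillus control signal. The lowest array of each group was its replicate 3, and the groups overlapped widely, with a mean of 4554 ± 3625 (SD, n = 3) in COUP-TFII depleted and 3368 ± 2960 (SD, n = 3) in control cells. The log2 fold change was 0.63 ± 1.07 (SE), with an adjusted p of 1 from the unpaired limma fit, so the difference was within the spread between replicates. An exact permutation test of the 3 arrays against 3 gave a two-sided p of 0.6, where 0.1 is the smallest it can give.

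The replicate number ordered the Gcg signal more than the siRNA did. Replicate 1 was 9.86 times replicate 3 in COUP-TFII depleted cells and 16 times in control cells. The 6 arrays ranked as depleted 1, control 1, depleted 2, control 2, depleted 3 and control 3, so that same-numbered arrays were always neighbours. An F test of the replicate number in limma with the group as a covariate, chosen after the values were seen, gave an adjusted p of 1.6e-05 for Gcg, and its adjusted p for the other 6 genes ran from 0.149 to 0.913. That test called 11% of all probe sets, so dependence on the replicate number was not particular to Gcg.

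Within each number Gcg was higher in the COUP-TFII depleted cells, by 1.28-fold in replicate 1, 1.41-fold in replicate 2 and 2.07-fold in replicate 3. With the replicate number as a block the standard error fell to 0.13 and the unadjusted p from limma was 0.00105, but the adjusted p was 0.566 and Gcg was not called. Of all probe sets 13.4% were higher in all 3 pairs and 14% lower in all 3. An exact test of 3 pairs cannot give a two-sided p below 0.25. Leaving out 1 array moved the unpaired log2 fold change from -0.55 (without control replicate 3) to 1.61 (without COUP-TFII siRNA replicate 3), whereas with the block and without both arrays of a number it stayed between 0.42 and 0.77.

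**Figure D1:**
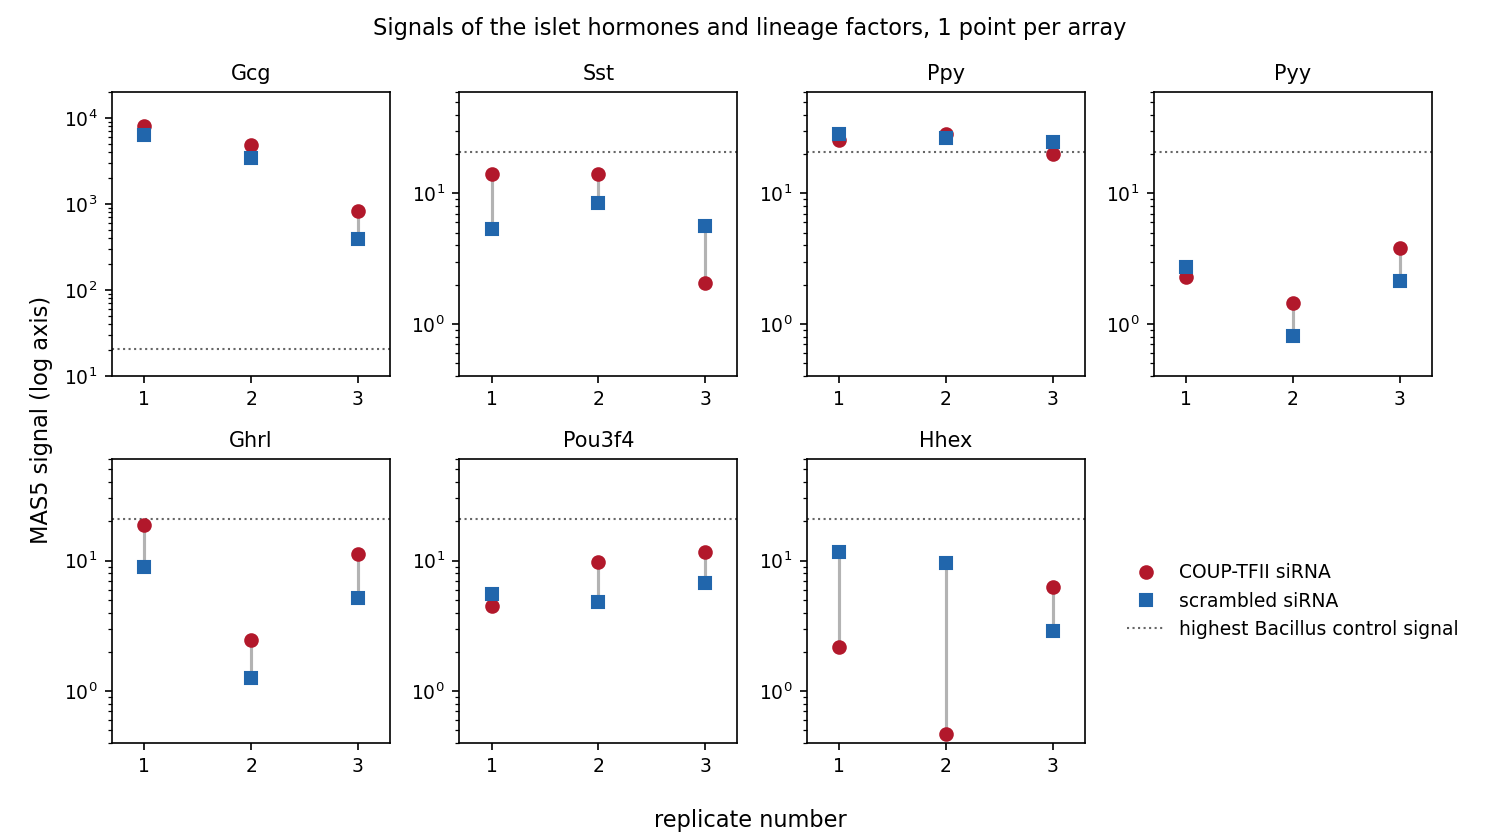
MAS5 signal (log axis) of each gene against the replicate number, with 1 point per array, grey bars joining same-numbered arrays and the dotted line at the highest Bacillus control signal (20.7). Gcg lies above the line on all 6 arrays, from 394 to 8056, and Ppy lies near it, while the other 5 genes lie below it on every array.

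The range of Gcg was among the widest of the well-expressed probe sets. Its highest signal was 20.4 times its lowest, and of the 15520 other probe sets whose mean reached the median signal 6 had a larger ratio. The median ratio of such probe sets was 1.61. Ins1, measured in the same RNA, had a ratio of 1.67 and Ins2 of 2.54. The replicate 3 arrays, where Gcg was lowest, did not have the lowest Ins1 or Ins2 signals, which were those of control replicate 2. Their median signals over all probe sets, 39.4 and 39.5, were the highest of the 6 arrays (range 29.9 to 39.5). The ratio of 3′ to 5′ signal for the GAPDH control, a measure of RNA integrity, was 1.05 and 1.02 on those arrays and 0.974 to 1.09 on all 6. For the β-actin control it was 2.64 and 2.88 on those arrays and 2.64 to 3.39 on all 6. Why Gcg was lowest in replicate 3 was not tested, and the labels do not name the cultures, passages or days behind a number. Nor can fewer cells with glucagon RNA and less glucagon RNA per cell be told apart in such a culture.

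**Figure D2:**
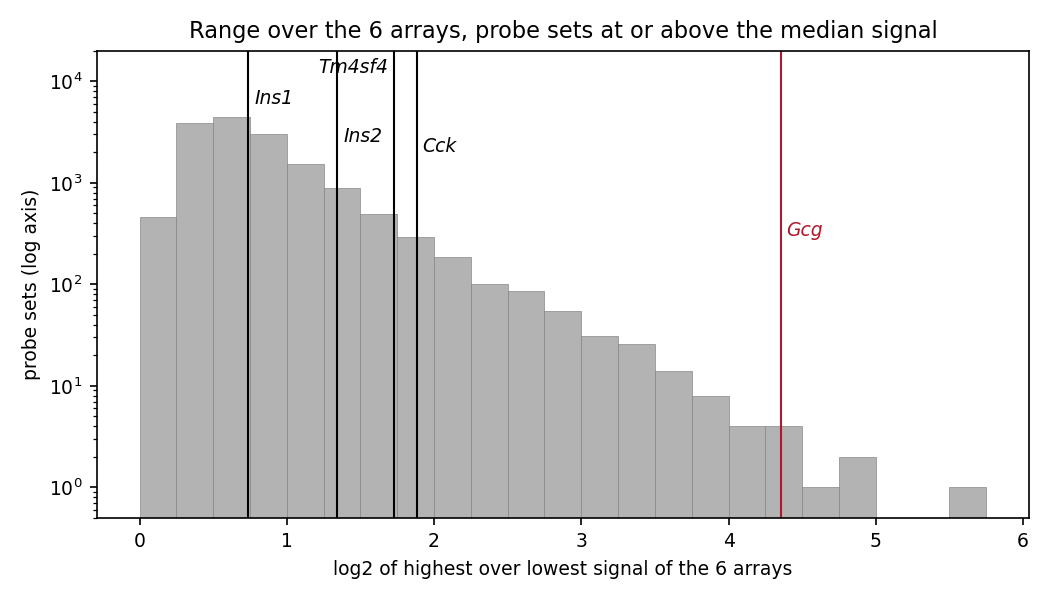
Number of probe sets (log axis) by the log2 ratio of the highest to the lowest signal of the 6 arrays, for probe sets whose mean reached the median of all, with lines for 5 hormone and marker genes. Gcg lies at a 20.4-fold range, beyond nearly all other probe sets, and Ins1 at 1.67-fold lies near the median of 1.61.

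Probe sets whose log2 signal ran like that of Gcg over the 6 arrays were sought by Pearson's r, as a description, since all points share their arrays and replicate numbers. The 3 most alike were Arcn1, a coat protein of Golgi vesicles (r = 0.993), Idh3a, a subunit of mitochondrial isocitrate dehydrogenase (r = 0.992), and Crem, a cAMP-responsive transcription factor (r = 0.991). The first pair varied little. Arcn1 read 556, 523 and 430 in COUP-TFII depleted cells and 526, 514 and 389 in control cells, and Idh3a read 221, 212 and 164 against 229, 203 and 146. The Crem probe set read 194, 181 and 57.8 against 174, 144 and 43.7, so its replicate 3 was far below the others in both groups. Crem had 6 probe sets, and its brightest read 1760, 1506 and 374 against 1495, 1227 and 427. An r of at least 0.9 with Gcg was found for 350 of the 15520 probe sets (2.26%) and an r of at most -0.9 for 279 (1.8%). The order of all 6 arrays was the same as for Gcg in 45 of them.

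Among 64 genes of the lists followed here that were not dim, 4 had an r of at least 0.9 with Gcg. These were Tm4sf4, a membrane protein of α-cells (r = 0.958), Pam, the enzyme that amidates peptide hormones (r = 0.948), the hormone gene Cck (r = 0.946) and Car2, a carbonic anhydrase (r = 0.935). Tm4sf4 read 5240, 3332 and 1582 in COUP-TFII depleted cells and 4408, 2910 and 1650 in control cells. Cck, the cholecystokinin gene, read 929, 742 and 270.1 against 996, 706 and 330.4. Both were lowest in replicate 3 of both groups, Tm4sf4 within a 3.31-fold and Cck within a 3.69-fold range. The other 5 α-cell markers that were not dim did not run like Gcg, with r = -0.623 for Gc, -0.498 for Ttr, -0.408 for Kcnj3, -0.124 for Slc7a2 and 0.311 for Sema3e. Glp1r, the receptor of the GLP-1 that the same gene encodes, ran the opposite way (r = -0.993), at 60.1, 64.8 and 78.8 in COUP-TFII depleted and 64.7, 68.1 and 87.0 in control cells, over a 1.45-fold range.

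**Figure D3:**
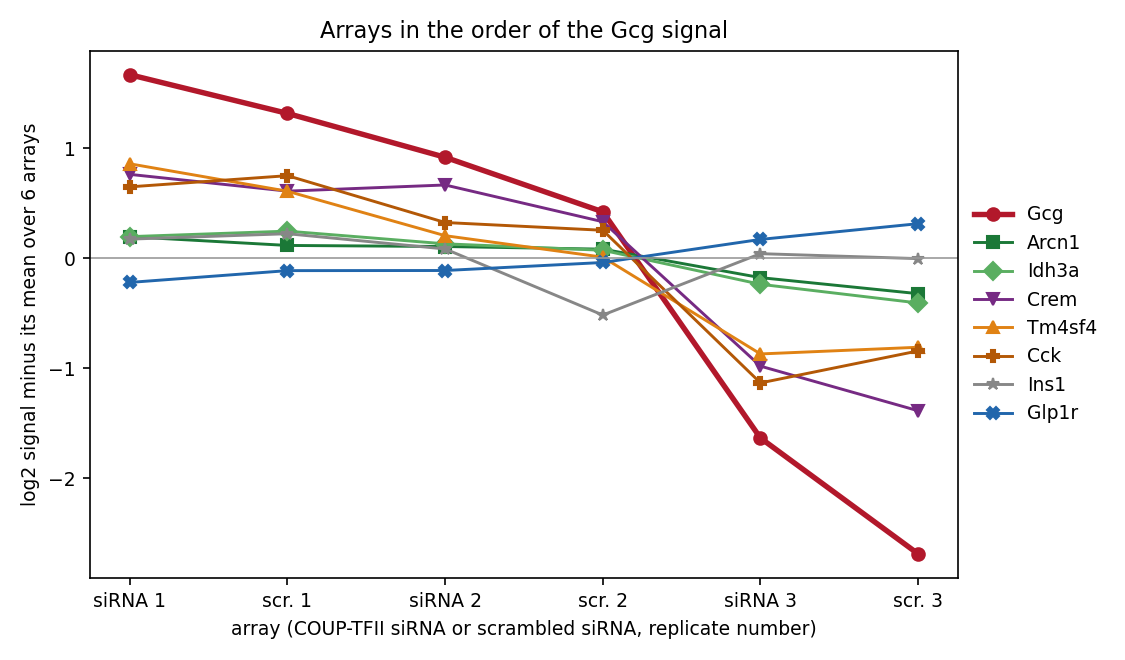
Log2 signal minus its mean over the 6 arrays, with arrays in the order of the Gcg signal (siRNA, COUP-TFII depleted; scr., control) and 1 line per gene (for Crem, the probe set most like Gcg). Gcg descends along the order over a 20.4-fold range, Crem, Tm4sf4 and Cck are lowest in both replicate 3 arrays, and Glp1r is highest there over a 1.45-fold range.

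The other islet hormones were at or near background. Ppy, the PP-cell hormone, read 25.6, 28.7 and 20.1 in COUP-TFII depleted cells and 28.8, 26.6 and 24.6 in control cells. These signals lie around the highest Bacillus control signal and the groups overlapped, with a log2 fold change of -0.12 ± 0.40 (SE) and an adjusted p of 1 from limma. Its most similar probe sets were Plet1 (r = 0.987), Mpdu1 (r = 0.987) and Snx11 (r = 0.985), over a 1.44-fold range of Ppy.
Sst read 14.07, 14.05 and 2.04 in COUP-TFII depleted and 5.32, 8.42 and 5.63 in control cells. All 6 values lie below the highest Bacillus control signal, and the depleted replicate 3 was the lowest of the 6. Pyy, a gut and PP-cell peptide, read 2.28, 1.44 and 3.82 against 2.73, 0.803 and 2.13. Ghrl, the ε-cell hormone, read 18.6, 2.47 and 11.1 against 8.93, 1.26 and 5.18. Both Pyy and Ghrl were lowest in replicate 2 of both groups, and Ghrl read higher in the depleted cells in all 3 pairs, at signals within background, as did 13.4% of all probe sets. None of the dim hormones can be given a level, so no fold change of the RNA is drawn from them.

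The lineage factors were also dim. Pou3f4, which binds the glucagon promoter in α-cells, read 4.47, 9.77 and 11.7 in COUP-TFII depleted cells and 5.54, 4.81 and 6.69 in control cells. The groups overlapped, on arrays where Gcg was far above background. Hhex, which δ-cells need for their identity, read 2.19, 0.471 and 6.31 against 11.5, 9.55 and 2.89. It was lower in the depleted cells in replicates 1 and 2 and higher in replicate 3, with an adjusted p of 1 from limma. All 6 Hhex signals lie below the highest Bacillus control signal.

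The comparison of COUP-TFII depleted with control cells called 0 of the 7 genes at an adjusted p under 0.05, where the unpaired limma fit called 0 of 31042 probe sets (0%). At an unadjusted p up to 0.05 this fit found 0.973% of all probe sets higher and 1.34% lower, and 0 of the 7 genes in either direction. With the replicate block 5 probe sets passed the adjusted threshold (0.0161%), none of them a member, and at an unadjusted p up to 0.05 there were 2.72% higher and 3.51% lower. Of the 7 genes 1, Gcg, was among the higher ones. Groups did not overlap for 0 of the 7 genes, against 3.24% of all probe sets higher and 3.45% lower without overlap. The median log2 difference over the 7 genes, 0.37, is that of Pyy, a dim gene, and so gives no change of RNA. Over all probe sets tested the median was -0.0031.

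**Figure D4:**
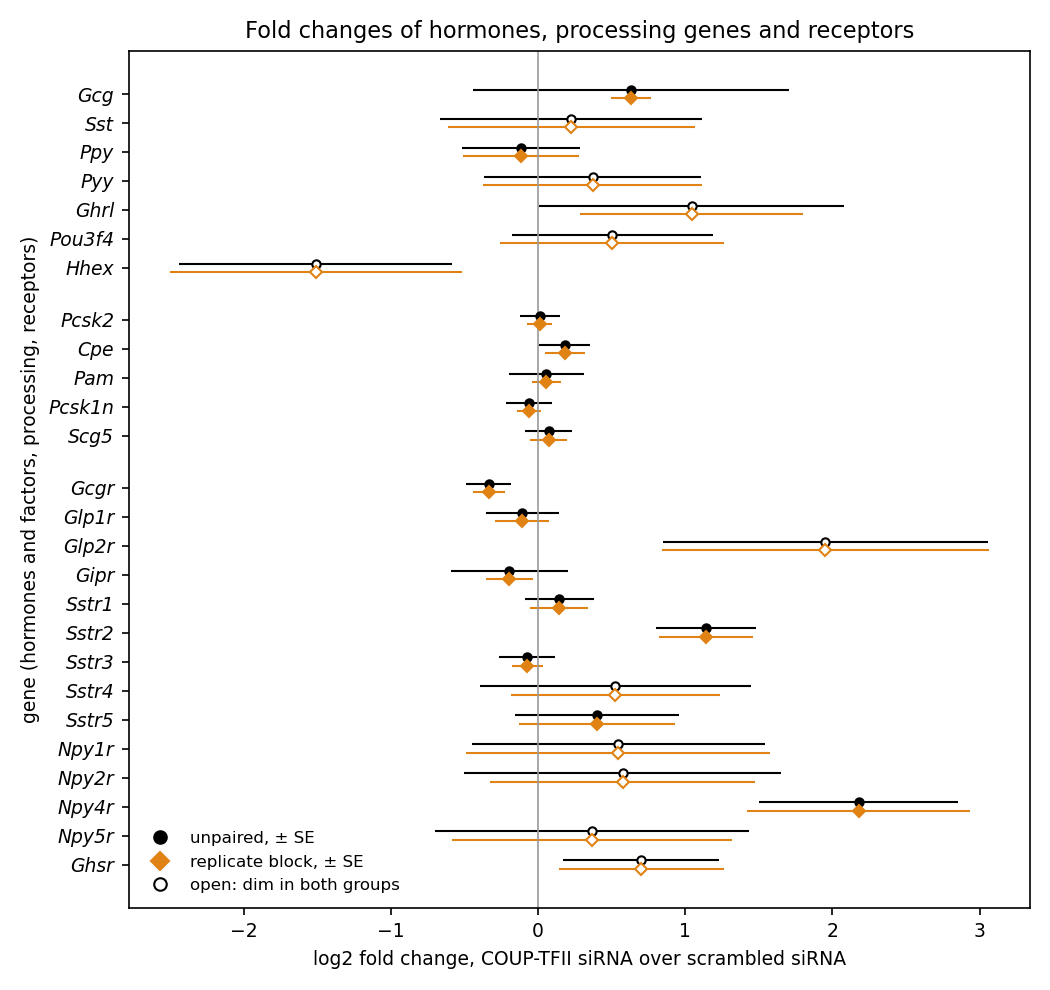
Log2 fold change between COUP-TFII depleted and control cells (positive, higher when depleted) for the 7 genes, 5 genes of prohormone processing and 14 receptors, with standard errors of the unpaired fit (circles) and of the fit with the replicate block (diamonds), open where dim in both groups and no fold change of the RNA is drawn. For Gcg the standard error shrinks from 1.07 to 0.13 with the block at the same fold change of 0.63, and the processing genes lie near 0.

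Prohormones are cut and trimmed before they are stored, and the genes of this machinery were bright on all 6 arrays. Of 7 listed genes 5 were measured, 0 were dim and 0 passed an unadjusted p of 0.05 in either fit. Pcsk2, the convertase that releases glucagon from its precursor, read 1516, 1551 and 1802 in COUP-TFII depleted cells and 1555, 1562 and 1700 in control cells, a log2 fold change of 0.01. Cpe, the carboxypeptidase that trims the cut ends, had a log2 fold change of 0.18 and Pam, in its brightest probe set, of 0.06. Scg5, the chaperone of Pcsk2, stood at 0.07 and Pcsk1n, an inhibitor of prohormone convertases, at -0.06. The median over the 5 genes was 0.06, and each lay within the spread between replicates.

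Receptors for these hormones were measured for all 14 listed genes, of which 8 were not dim. With the unpaired fit 2 passed an unadjusted p of 0.05, both higher, against 0.973% of all probe sets higher and 1.34% lower. With the block 3 did, Sstr2 and Npy4r higher and Gcgr lower, against 2.72% higher and 3.51% lower, and 0 passed after adjustment in either fit. Sstr2, an inhibitory somatostatin receptor, read 62.8, 49.4 and 63.3 in COUP-TFII depleted cells and 20.7, 33.4 and 26.4 in control cells. The groups did not overlap, with a log2 fold change of 1.14 ± 0.34 (SE) and an adjusted p of 1 from limma. Its other probe set read 21.2, 13.2 and 19.8 against 19.2, 12.7 and 22.4, with overlap and near background, so the probe sets of this gene differed. Npy4r, the receptor of pancreatic polypeptide, read 12.5, 25.7 and 28.4 against 7.93, 3.63 and 3.42, without overlap. Its control signals and depleted replicate 1 lie in the background. With control arrays that read below the highest Bacillus control signal set to it, the depleted cells were 1.01-fold higher by mean log2 signal. This is a ratio of means without an error and no bound on the change. Sstr2 and Npy4r were higher without overlap, as were 3.24% of all probe sets.

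Of the receptors for products of the glucagon gene and for the incretin GIP, Gcgr read 262, 251 and 230.0 in COUP-TFII depleted cells and 336, 270.1 and 334 in control cells. Each depleted array was below each control array, with a log2 fold change of -0.34 ± 0.15 (SE) and an adjusted p from limma of 1. With the block the unadjusted p from limma was 0.0129 and the adjusted p 0.777. Lower without overlap were 3.45% of all probe sets. Glp1r had a log2 fold change of -0.11, also lower in all 3 pairs, and Gipr of -0.20. Gipr read 188, 126 and 389 against 272, 165 and 309, a spread by replicate number that was wider than the difference between the groups. The somatostatin receptors Sstr1 and Sstr3 had log2 fold changes of 0.14 and -0.07. Sstr5, whose control signals and depleted replicate 2 were within background, was 1.07-fold higher by the ratio used for Npy4r, with overlapping groups. The 6 dim receptors were Glp2r, Sstr4, Npy1r, Npy2r, Npy5r and the ghrelin receptor Ghsr, where 37.5% of all probe sets were dim.

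**Figure D5:**
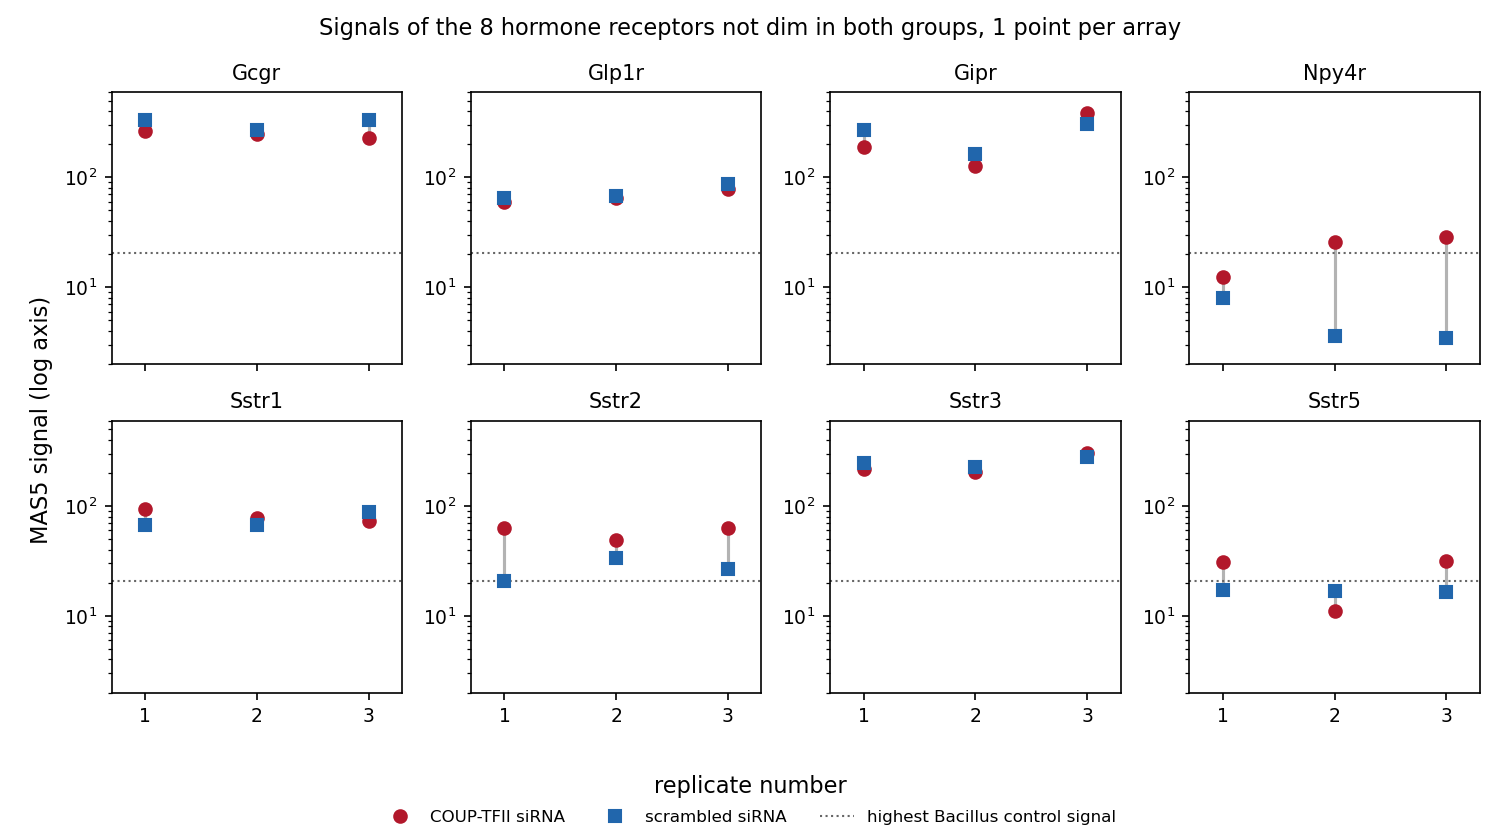
MAS5 signal (log axis) of the brightest probe set of the 8 receptors that were not dim, against the replicate number, with 1 point per array, grey bars joining same-numbered arrays and the dotted line at 20.7. Sstr2, Npy4r and Gcgr have no overlap between COUP-TFII depleted and control cells. Of all probe sets 3.24% are higher and 3.45% lower without overlap. The control signals of Npy4r and its depleted replicate 1 lie under the line. Gipr is highest in replicate 3 of both groups.

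Other genes that mark the cell types of these hormones were read alongside. Of 11 measured α-cell factors and markers 6 were not dim, among them Gc, the vitamin D binding protein, which read 5672, 5860 and 6354 in COUP-TFII depleted and 5631, 4915 and 6319 in control cells. In this brightest probe set Gc thus stayed within a 1.29-fold range on the arrays where Gcg varied by 20.4-fold. The other probe set of Gc ran from 281 to 497, a 1.77-fold range. It was lower in the depleted cells in all 3 pairs, where the brightest was higher in all 3. Irx1 and Irx2, homeobox factors of α-cells, were dim. Slc7a2, a transporter of cationic amino acids, read 20.0, 27.3 and 32.9 against 7.33, 8.97 and 11.4 (adjusted p = 1 from limma). Its control signals and depleted replicate 1 lie in the background, and it was 1.27-fold higher in the depleted cells by the ratio used for Npy4r. Slc7a2 and the dim gene Peg10 were the 2 of the 11 at an unadjusted p up to 0.05 in either fit, both higher. Of all probe sets 0.973% were higher at that threshold unpaired and 2.72% with the block.
Of 11 δ-, PP- and ε-cell markers 4 were not dim, and 1, the dim gene Erbb4, was lower at an unadjusted p up to 0.05, joined with the block by Acsl1 (unadjusted p = 0.0307, adjusted p = 0.797 from limma). At that threshold 1.34% of all probe sets were lower unpaired and 3.51% with the block. The list held Etv1, an ETS factor, which read 3038, 2614 and 2378 in COUP-TFII depleted and 3276, 2346 and 2423 in control cells. Of 14 endocrine progenitor factors 11 were not dim and 0 passed an unadjusted p of 0.05 in the unpaired fit. With the block 3 did, all lower in the depleted cells in all 3 pairs, Hnf4a (unadjusted p = 0.0135 from limma), Prox1 (0.0155) and St18 (0.0194), against 3.51% of all probe sets, and each had an adjusted p of 0.777. Pax6, which α- and β-cells share, read 3316, 3435 and 3346 against 3688, 3243 and 3851, whereas Neurog3, the factor that starts the endocrine lineage, was dim. Of 11 other islet and gut peptide genes 6 were not dim, Sct, Npy, Cck, Gast, Tac1 and Chga, and 0 passed an unadjusted p of 0.05 in the unpaired fit. The secretin gene Sct read 244, 295 and 141 in COUP-TFII depleted and 243, 331 and 128 in control cells, lowest in replicate 3 of both groups as Gcg was. Npy, for neuropeptide Y, read 626, 505 and 978 against 578, 424 and 808, and was highest in replicate 3 of both groups. It was higher in the depleted cells in all 3 pairs, and with the block it was the 1 gene of this list at an unadjusted p up to 0.05 (limma, adjusted p = 0.797, unadjusted p = 0.0302). Of all probe sets 2.72% were higher at that threshold.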

How the data were processed

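RNA was measured on 6 Affymetrix rat arrays, 3 per group. The authors processed the scans with MAS5 (version not given in the sources used here), and the deposited values are linear intensities, background-subtracted and normalized with reference probes. The table holds no detection calls. Of its probe sets 57 controls were left out and 31042 tested. A single symbol of the platform annotation names 20826 of them, several 436 and none 9780. None was named from several symbols. Of 150 listed symbols 23 were not matched to a probe set of a single symbol and were not analysed here, Pcsk1 among them.

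Signals under 1 were set to 1, log2 was taken, and limma 3.58.1 (R 4.3.3) fitted the groups with lmFit and trended eBayes. Tests were two-sided and unpaired, since no pairing is named in the methods, and p-values were adjusted by Benjamini-Hochberg over all probe sets. The number of arrays limits the precision. No 2 arrays were identical. Deviations from the group means correlated at 0.111 to 0.231 between same-numbered arrays and at -0.146 to -0.0104 between others. Such deviations cancel out within a group. Positive values between same-numbered arrays thus pull the others down, and these ranges are not independent. From the values between same-numbered arrays the numbers were taken, from the data, as pairing the arrays. A blocked fit on the replicate number is given beside the unpaired one where it moves a named gene past an unadjusted or adjusted p of 0.05.

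The members, the gene lists and the tests were chosen with earlier results of these data known. Named were every member, Nr2f2, the processing genes and receptors, up to 4 genes of each other list by p among those not dim (plus Ins1 and Ins2), and the 3 probe sets most like each member that was not dim. The brightest probe set of Crem, Tm4sf4, Cck, Sct, St18, Sema3e and Pax6, and the dim genes Irx1, Irx2, Peg10, Erbb4 and Neurog3, fall outside this rule and were named after their values were seen. Genes that the rule admits but the text leaves out include Nkx6-1, Pdx1, Slc2a2, Cdx2 and Nkx2-2. A gene is represented by its brightest probe set. Tried in turn were the replicate block, each array left out, quantile normalization, centring on the median, log2(signal + 16), a filter at the median signal, the methods' t-test and untrended limma. The block combined with other choices, and the F test of the replicate number, were added after the data were seen. The fits were also run on simulated data with known changes and a spread set by the signal level. Those data did not model a replicate spread as wide as that of Gcg and do not speak for it. Promoters came from a RefSeq table of GRCr8, and all 7 genes matched it by symbol. Python 3.11.15 and matplotlib 3.10.9 drew the figures.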

Additional observations from a re-analysis of the deposited data

How the results depend on the processing

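No gene of the 7 was called in any of the 18 other settings, of which the filter at the median signal kept Gcg alone. Over all probe sets the unpaired limma fit called 0 at an adjusted p under 0.05, the methods' t-test 1, and limma with the replicate block 5, with the block and quantile normalization 4, with the block and log2(signal + 16) 2, and with the block without both arrays numbered 1, 1; with each single array left out and in the other settings it called 0. At an unadjusted p up to 0.05 the numbers higher and lower were 302 and 415 unpaired, 472 and 502 by the methods' t-test, 516 and 540 without the trend, and 844 and 1089 with the replicate block. The replicate block left the log2 fold change of Gcg at 0.63 and changed the call at an adjusted p of 1 probe set named here, the brightest of Nr2f2 (adjusted p = 0.0185 from limma, 0.404 without the block).
With 1 array left out the log2 fold change of Gcg ran from -0.55 to 1.61, and was -0.042 without COUP-TFII siRNA replicate 1. That of Sst ran from -0.24 to 1.15, Ppy from -0.23 to 0.027, Pyy from -0.052 to 0.72, Gipr from -0.64 to 0.17, Glp1r from -0.22 to 0.022, Sstr3 from -0.25 to 0.041, Pcsk2 from -0.065 to 0.059, Pam from -0.19 to 0.24, Pcsk1n from -0.18 to 0.029, Npy from -0.052 to 0.45, St18 from -0.67 to 0.025 and Scg5 from -0.0047 to 0.11. Quantile normalization, with or without the block, turned Pcsk2 to -0.0069 and Scg5 to -0.061. With the block and without both arrays of a number, Sst was -0.36 without 1 and -0.030 without 2, Sstr1 -0.015 without 1, Scg5 -0.033 without 2, Pcsk2 -0.024 and Pam -0.038 without 3. The causes were not tested. Of the 30 log2 fold changes followed, 16 kept their sign in every setting. Ghrl, Pou3f4 and Hhex were among these, at signals within background, and Hhex moved from -1.51 to -0.33 with log2(signal + 16) and to -2.83 with the block without both arrays numbered 3.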
